A study of Mus musculus with 9 samples.

Results

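Bank1 and 6 partners of antigen-receptor-type signalling are described here in sorted brain myeloid cells. The 7 genes are the scaffolds Bank1 and Pik3ap1, the kinases Lyn and Btk, the adaptors Blnk and Dapp1, and the lipid phosphatase Inpp5d, out of 36528 genes in the files. Bank1 was selected on its genotype difference in these same libraries, and the other 6 were added by function with earlier results known. Genotype values of the 7 are therefore a description, with no test. Lyn is the single Src-family kinase among them, and the others act next to such kinases.

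RNA was sequenced from Cd11b+ cells of the brains of mice aged 11 to 12 months. The Tau-P301L group had 5 libraries (libraries 1 and 2 from females, 3 to 5 from males) from transgenic animals that express tau with the P301L mutation. The wild-type group had 4 libraries (1 and 2 from females, 3 and 4 from males) from littermates without the transgene. The promoter of the transgene, the strain and any pooling of mice were not given in the sources used here. Labels do not state that libraries are from different animals, and p-values cover no more than the variation among these libraries.

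These proteins are best known from B cells. There a Src-family kinase such as Lyn phosphorylates the tails of the receptor, the adaptor Blnk brings Btk and a phospholipase C together, and phosphoinositide 3-kinase (PI3K) makes a membrane lipid to which Btk and Dapp1 bind. Inpp5d (SHIP1) removes that lipid. Bank1 links Lyn to calcium release, and Pik3ap1 (BCAP) recruits PI3K. Myeloid cells, microglia included, use many of the same proteins behind their Fc receptors and the adaptor Tyrobp.

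Libraries held 1494727 to 3793606 reads in genes, and 3 reads in a library equal 0.791 to 2.01 CPM (counts scaled to library size) before normalization. Levels below are CPM after TMM scaling unless stated, and every member had at least 79 reads in every library. Xist and Ddx3y fitted the labelled sex in all 9 libraries, with Xist at 11900 to 23270 CPM in females and 48.6 to 126 CPM in males. Tau-P301L libraries 3 and 5 differed most from the rest, by the median root mean square difference of log2 CPM from the other libraries. It was 0.953 and 0.904 for them, against 0.634 to 0.808 for the remaining 7. Genotype values of the members without libraries 3 and 5 of Tau-P301L are given below. Each library measures a mixed pool, in which fewer cells of a type and less RNA per cell cannot be told apart.

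Microglial transcripts were abundant, and most markers of B lymphocytes were at or near 0. The 8 microglial markers summed to 10260 to 14190 CPM in wild-type and 8247 to 14800 CPM in Tau-P301L libraries. In wild-type libraries the chemokine receptor Cx3cr1 had 3751 ± 1404 CPM, the purine receptor P2ry12 had 1302 ± 182 CPM, Tmem119 had 216 ± 35.9 CPM and Csf1r, the receptor that keeps microglia alive, had 1329 ± 48.5 CPM (SD, n = 4 each). With Tau-P301L they had 3514 ± 1839, 1348 ± 333, 150.3 ± 55.8 and 1140 ± 289 CPM in the same order (SD, n = 5 each). Of 13 B-cell markers 11 were found in the files by symbol, and Ighm and Igkc were not. The defining genes Pax5 and Pou2af1 had 0 reads in all 9 libraries, which at 3 reads allows up to 0.791 to 2.01 CPM in a library. Cd79a, Cd79b and Ms4a1 had at most 8 reads in any library. The summed B-cell markers, 14.9 to 33.5 CPM in wild-type and 29.9 to 56.6 CPM in Tau-P301L libraries, came mainly from Cd22 and Cr2, which had reads in every library. Bank1 lay above this sum in 8 of 9 libraries, the exception being Tau-P301L library 5 with 55.2 CPM of Bank1 and a sum of 56.6 CPM. These CPM are not divided by gene length, and the sum lacks Ighm and Igkc. The part of B-cell RNA in the Bank1 values was not tested. T and NK cell markers summed to at most 2.76 CPM, markers of monocytes and dendritic cells to 54.7 to 132 CPM in wild-type and 88.7 to 261 CPM in Tau-P301L libraries, and those of border macrophages to 32.9 to 120.4 and 51.8 to 97.8 CPM. Blk, the Src-family kinase typical of B cells, had 0 reads in every library.

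The members lie on 5 chromosomes (RefSeq, GRCm38.p6). Bank1 lies on the minus strand at chr3:136053363-136326141, and Dapp1, also on the minus strand, at chr3:137931007-137981549, a gap of 1.605 Mb. Blnk (chr19:40928927-40994221) and Pik3ap1 (chr19:41272541-41385102) are 0.278 Mb apart, both on the minus strand. Inpp5d lies at chr1:87620312-87720510 and Lyn at chr4:3678068-3791612, both on the plus strand, and Btk on the minus strand at chrX:134542334-134583628. Counting is not stated to use strand. In the GENCODE annotation the non-coding gene Gm26857, on the opposite strand, shares 6.09% of the exon bases of Lyn, and no other gene shares exon bases with a member.

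The promoters of Bank1 and Dapp1 are shown because both hold the same 10 letters. RefSeq windows from 250 bases before to 50 bases after the start of 1 transcript were at hand for 6 of the 7 members. In 4 of them, Dapp1 included, that start is also the start of the gene span given above, while it lies 75 bases inside the span in Bank1 and 488 bases inside it in Btk. The letters GGAAGT and GGAANNGAAA were searched on both strands, chosen after the windows had been read. The first is a core bound by ETS factors such as PU.1, the master regulator of myeloid and B cells, and the second is the composite at which PU.1 binds with IRF4 or IRF8. Where the N letters are GT the composite contains the core. Capitals mark every match, so that TTTCACTTCC is the composite read on the opposite strand, and the windows are chr3:136326017-136326316 and chr3:137981500-137981799, both printed along the minus strand.
Bank1: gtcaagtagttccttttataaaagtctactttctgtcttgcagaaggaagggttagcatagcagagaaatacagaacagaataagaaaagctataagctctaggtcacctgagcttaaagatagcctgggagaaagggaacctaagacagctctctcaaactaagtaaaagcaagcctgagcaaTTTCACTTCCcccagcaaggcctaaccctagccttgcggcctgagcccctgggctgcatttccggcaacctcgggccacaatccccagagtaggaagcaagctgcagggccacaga
Dapp1: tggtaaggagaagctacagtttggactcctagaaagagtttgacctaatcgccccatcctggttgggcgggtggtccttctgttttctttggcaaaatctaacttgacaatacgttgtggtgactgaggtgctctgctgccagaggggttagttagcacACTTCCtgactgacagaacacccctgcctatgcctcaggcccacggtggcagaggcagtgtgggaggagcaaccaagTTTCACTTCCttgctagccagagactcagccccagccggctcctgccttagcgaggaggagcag

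The composite began 66 bases before the transcript start of the window in Bank1, which is 9 bases after the start of the RefSeq gene span and so inside the gene by that annotation. In Dapp1 it began 14 bases before both starts. It was in 2 of the 6 member windows and in 2.72% of all 32851 windows of this length. The core was in 5 of the 6, those of Bank1, Pik3ap1, Blnk, Dapp1 and Inpp5d, against 23.8% of all windows and 28.3% of the 11668 windows of genes tested here. These are matches of letters and not measured binding. Bank1 and Dapp1 both hold the composite and lie on the same chromosome. Any part of either in their levels, which are given below, was not tested.

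In wild-type cells the order of the members was compared per length, in RPKM rescaled by the authors (nRPKM). Inpp5d led with 18.8 ± 3.34 nRPKM, followed by Lyn with 16.1 ± 3.79 and Blnk with 10.9 ± 3.84 nRPKM (SD, n = 4 each). Bank1 came next with 9.43 ± 1.69 nRPKM, then Dapp1 with 8.52 ± 2.29, Btk with 6.23 ± 1.01 and Pik3ap1 with 4.81 ± 0.476 nRPKM (SD, n = 4 each). The ranges of each pair of neighbours in this order overlapped, so no neighbouring step exceeds the spread between libraries. The highest member stood 3.91-fold over the lowest, and the 7 lay between percentiles 91.5 and 98.4 of detected genes. By mean, Bank1 was the lowest of the 7 in Tau-P301L libraries, at 4.52 ± 1.14 nRPKM (SD, n = 5), with Lyn on top at 17.7 ± 2.3 nRPKM (SD, n = 5). This order did not hold in each library. Bank1 exceeded Pik3ap1 in Tau-P301L libraries 1 (5.90 against 5.38 nRPKM) and 2 (5.53 against 4.77 nRPKM). Inpp5d exceeded Lyn in library 4 (19.9 against 15.2 nRPKM). The place of Bank1 contains the value by which it was chosen.

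Bank1, the scaffold for which the group is named, stood at 137, 159, 159 and 109 CPM in wild-type libraries 1 to 4. In Tau-P301L libraries 1 to 5 it stood at 88.6, 83.6, 59.2, 48.7 and 55.2 CPM. Every Tau-P301L library lay below every wild-type library, and the nearest values were 88.6 and 109 CPM. The means were 141 ± 23.8 CPM (SD, n = 4) and 67.1 ± 17.9 CPM (SD, n = 5), and the log2 fold change came to -1.06 (SE 0.24), or 48% of the wild-type level. Because Bank1 was chosen by this difference, the values are given without a test.

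The Bank1 difference was also fitted in other settings, as a description of its size. Since the groups did not overlap, its sign could hardly change on leaving out libraries or taking 1 sex. Over 18 other settings the log2 fold change of Bank1 ran from -1.30 to -0.78, and leaving out single libraries gave -1.16 to -0.88. It was -1.04 without Tau-P301L libraries 3 and 5, -0.78 in females alone and -1.30 in males alone. The 3 Tau-P301L males, at 48.7 to 59.2 CPM, were lower than the 2 Tau-P301L females, at 83.6 and 88.6 CPM, whereas wild-type females (137 and 159 CPM) and males (109 and 159 CPM) overlapped. The difference between the sexes in the genotype effect was -0.52 log2 units (SE 0.51, edgeR adjusted p = 1.0), about the size of its error.

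Markers of several cell types differed between the libraries beside Bank1. The 7 astrocyte markers summed to 310.6 to 417 CPM in wild-type and 310.0 to 670 CPM in Tau-P301L libraries, and the 3 highest sums, 596, 527 and 670 CPM, were those of the 3 Tau-P301L males. Among them 5 of 7 markers had a higher mean there than in the other 6 libraries, and Slc1a2, a glutamate transporter, gave the largest share (367 to 540 CPM against 186 to 283 CPM). In the 2 Tau-P301L females the sums were 310.0 and 321 CPM. Reads from mitochondrial genes made up 15.4 to 23.1% in these 3 libraries and 9.30 to 20.0% in the other 6. The mean was lower in Tau-P301L than in wild-type libraries for 7 of 8 microglial markers, 7 of 8 neuronal and 4 of 7 oligodendrocyte markers. It was also lower for 6 of 7 endothelial and 6 of 8 border macrophage markers. The mean was higher for 6 of 7 astrocyte, 8 of 10 monocyte and dendritic cell and 9 of 10 neutrophil markers. The neutrophil sum was 281 CPM in Tau-P301L library 4 and 1.27 to 5.59 CPM in the other Tau-P301L libraries. Of 11 B-cell markers 5 were higher and 3 lower. These counts by direction set no floor and take in genes with almost no reads. Among those counted as higher, Ly6c2, Ccr7 and Vpreb3 had 0 CPM in wild-type and 0.07, 0.14 and 0.09 CPM in Tau-P301L libraries as means. The endothelial Ly6c1, counted as lower, had 0.23 and 0 CPM. Ccr2, 1 of the 2 monocyte and dendritic cell markers that were lower, averaged 44.0 and 37.3 CPM. Picked after their values were seen, the myelin gene Mbp ranged from 63.9 to 95.3 CPM in wild-type and from 30.9 to 56.9 CPM in Tau-P301L libraries, and the microglial factor Sall1 from 787 to 1438 and from 545 to 919 CPM. The groups did not overlap for Mbp and overlapped for Sall1. The part of any of these in the Bank1 difference was not tested.

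Pik3ap1, the other scaffold with the domain shared by BANK1 and BCAP (the DBB domain), stood at 95.6, 99.9, 79.2 and 86.7 CPM in the wild-type libraries. In Tau-P301L libraries 1 to 5 it stood at 102, 90.7, 99.6, 147 and 71.2 CPM. The groups overlapped, and the highest and the lowest value both belonged to Tau-P301L males. The log2 fold change was 0.18 (SE 0.26), 0.02 without Tau-P301L library 4 and 0.325 without libraries 3 and 5. In Tau-P301L library 4, 9 of 10 neutrophil markers also had their highest level, with a sum of 281 CPM against 0.341 to 81.5 CPM in wild-type libraries. The part of neutrophil RNA in its Pik3ap1 value was not tested.

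Since the DBB scaffolds are a pair, their balance was followed within each library, per length. Bank1 made up 64.3, 66.6, 71.6 and 61.2% of the summed nRPKM of the pair in the wild-type libraries, a mean of 65.9 ± 4.4% (SD, n = 4). In Tau-P301L libraries 1 to 5 it made up 52.3, 53.7, 42.8, 29.4 and 49.3%, a mean of 45.5 ± 9.92% (SD, n = 5). All 5 Tau-P301L shares lay below all 4 wild-type shares, and in 3 of the 5 libraries Pik3ap1 was the larger of the pair. This balance contains the value by which Bank1 was chosen and is a description too.

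**Figure D1:**
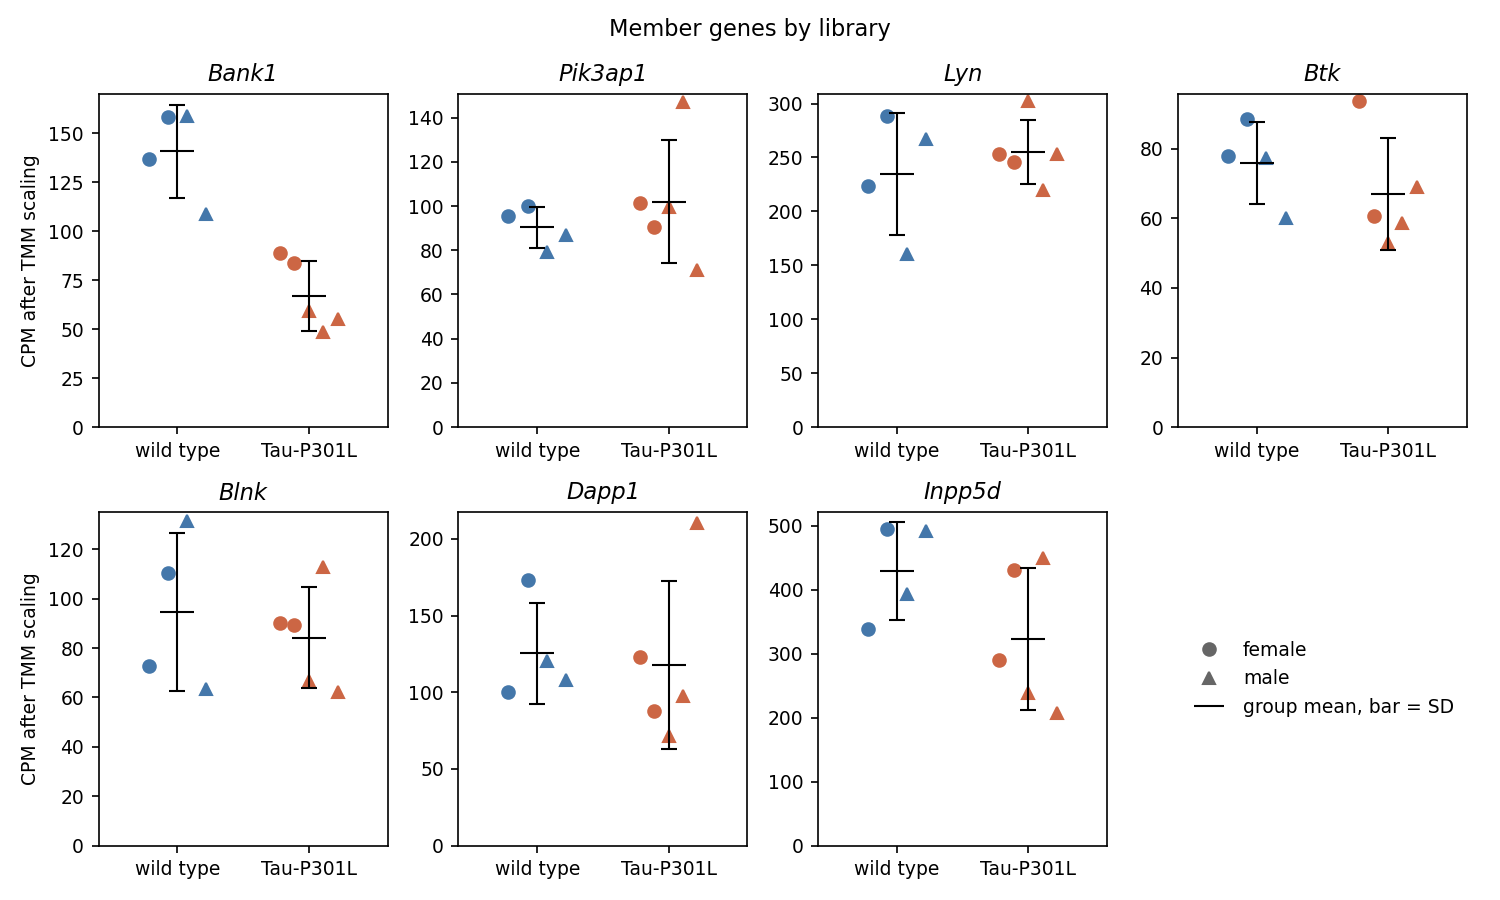
Levels of the 7 member genes in CPM after TMM scaling (vertical axis, from 0) in 4 wild-type and 5 Tau-P301L libraries, with circles for females, triangles for males, and the group mean with its SD in black. Bank1 separates the groups, with Tau-P301L values of 48.7 to 88.6 CPM below wild-type values of 109 to 159 CPM, while the other 6 genes overlap.

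Of the kinases, Lyn stood at 223, 288.5, 161 and 267 CPM in the wild-type and at 253, 246, 302, 219.8 and 254 CPM in the Tau-P301L libraries. The groups overlapped, with the lowest value in wild-type library 3 and the highest in Tau-P301L library 3. The log2 fold change was 0.13 (SE 0.23), and its sign changed without wild-type library 3 (-0.05), without Tau-P301L libraries 3 and 5 (-0.01) and in females alone (-0.04). Lyn was the main Src-family kinase of the cells, with 63.6 ± 5.84% of the summed nRPKM of the 8 family members in wild-type (SD, n = 4) and 63.2 ± 6.42% in Tau-P301L libraries (SD, n = 5).

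Btk stood at 77.9, 88.7, 77.3 and 60.1 CPM in the wild-type and at 93.7, 60.7, 52.9, 58.6 and 69.1 CPM in the Tau-P301L libraries. The highest and the lowest of the 9 values were both in the Tau-P301L group, and the log2 fold change was -0.15 (SE 0.26), with -0.29 without Tau-P301L library 1, -0.06 without Tau-P301L library 2 and -0.16 without libraries 3 and 5. Btk was not the leading Tec-family kinase. Tec itself held 64.3 ± 3.03% of the family's nRPKM in wild-type libraries (SD, n = 4) and Btk 35.7 ± 3.05% (SD, n = 4), while the kinases Bmx and Txk of this family had 0 reads in every library. The share of Btk was 17.4% in Tau-P301L library 3 and 24.1% in library 5, against 32.5 to 41.1% in the other 7 libraries. Tec had its highest levels there, 254 and 221 CPM, against 88.2 to 186.5 CPM in the other 7. Btk itself was lowest in library 3 and within its wild-type range in library 5.

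The adaptor Blnk stood at 72.6, 110.5, 132 and 63.4 CPM in the wild-type and at 90.2, 89.3, 66.8, 113 and 62.2 CPM in the Tau-P301L libraries. Wild-type libraries alone spanned from 63.4 to 132 CPM, and the groups overlapped almost fully. The log2 fold change was -0.16 (SE 0.29), with the other sign without wild-type library 3 (0.13) and without Tau-P301L libraries 3 and 5 (0.07). Its relative Lcp2 (SLP-76), which does the same work in T cells and platelets, was more abundant, with 76.1 ± 4.17% of the family's nRPKM in wild-type libraries (SD, n = 4) against 23.9 ± 4.17% for Blnk (SD, n = 4). Clnk, the last of the family, had at most 4 reads.

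Dapp1 (Bam32), which carries an SH2 domain and a lipid-binding PH domain, had the widest spread. It stood at 99.9, 173, 120.1 and 108 CPM in the wild-type and at 123, 87.8, 71.8, 97.5 and 210.2 CPM in the Tau-P301L libraries. The highest value was in Tau-P301L library 5 and the lowest in library 3, the 2 libraries that differed most from the rest. The log2 fold change was -0.10 (SE 0.31) and moved to -0.40 without Tau-P301L library 5, -0.32 without libraries 3 and 5, -0.19 without wild-type library 1 or 4, and 0.12 without wild-type library 2. Its SD of log2 CPM within groups was 0.502, against a median of 0.375 over the 930 tested genes of like level, and Btk, at 0.283 against 0.42 over 1308 genes, was the steadiest member by that comparison.

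Inpp5d stood at 339, 495, 393 and 492 CPM in the wild-type and at 290.0, 431, 239, 450.2 and 207 CPM in the Tau-P301L libraries. Tau-P301L libraries 1, 3 and 5 lay below all wild-type libraries, while libraries 2 and 4 lay among them. The log2 fold change was -0.40 (SE 0.25), the largest after Bank1. It was -0.12 without Tau-P301L libraries 3 and 5, -0.21 in females alone and -0.56 in males alone. Leaving out single libraries gave -0.59 to -0.28. Inpp5d held 89.8 ± 3.35% of the nRPKM of the pair of SH2-containing inositol 5-phosphatases in wild-type (SD, n = 4) and 87.6 ± 1.64% in Tau-P301L libraries (SD, n = 5), with Inppl1 (SHIP2) making up the rest.

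Across the 7 members, 5 had a lower and 2 a higher estimate in Tau-P301L, with a median log2 fold change of -0.15. Over all 12250 genes tested, 6132 were lower and 6118 higher, and the median was 0.00 after rounding. The groups did not overlap for 1 of the 7, Bank1, in the lower direction, against 1.18% of all tested genes in that direction and 1.31% in the higher. All 7 members passed the filter on low counts.

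**Figure D2:**
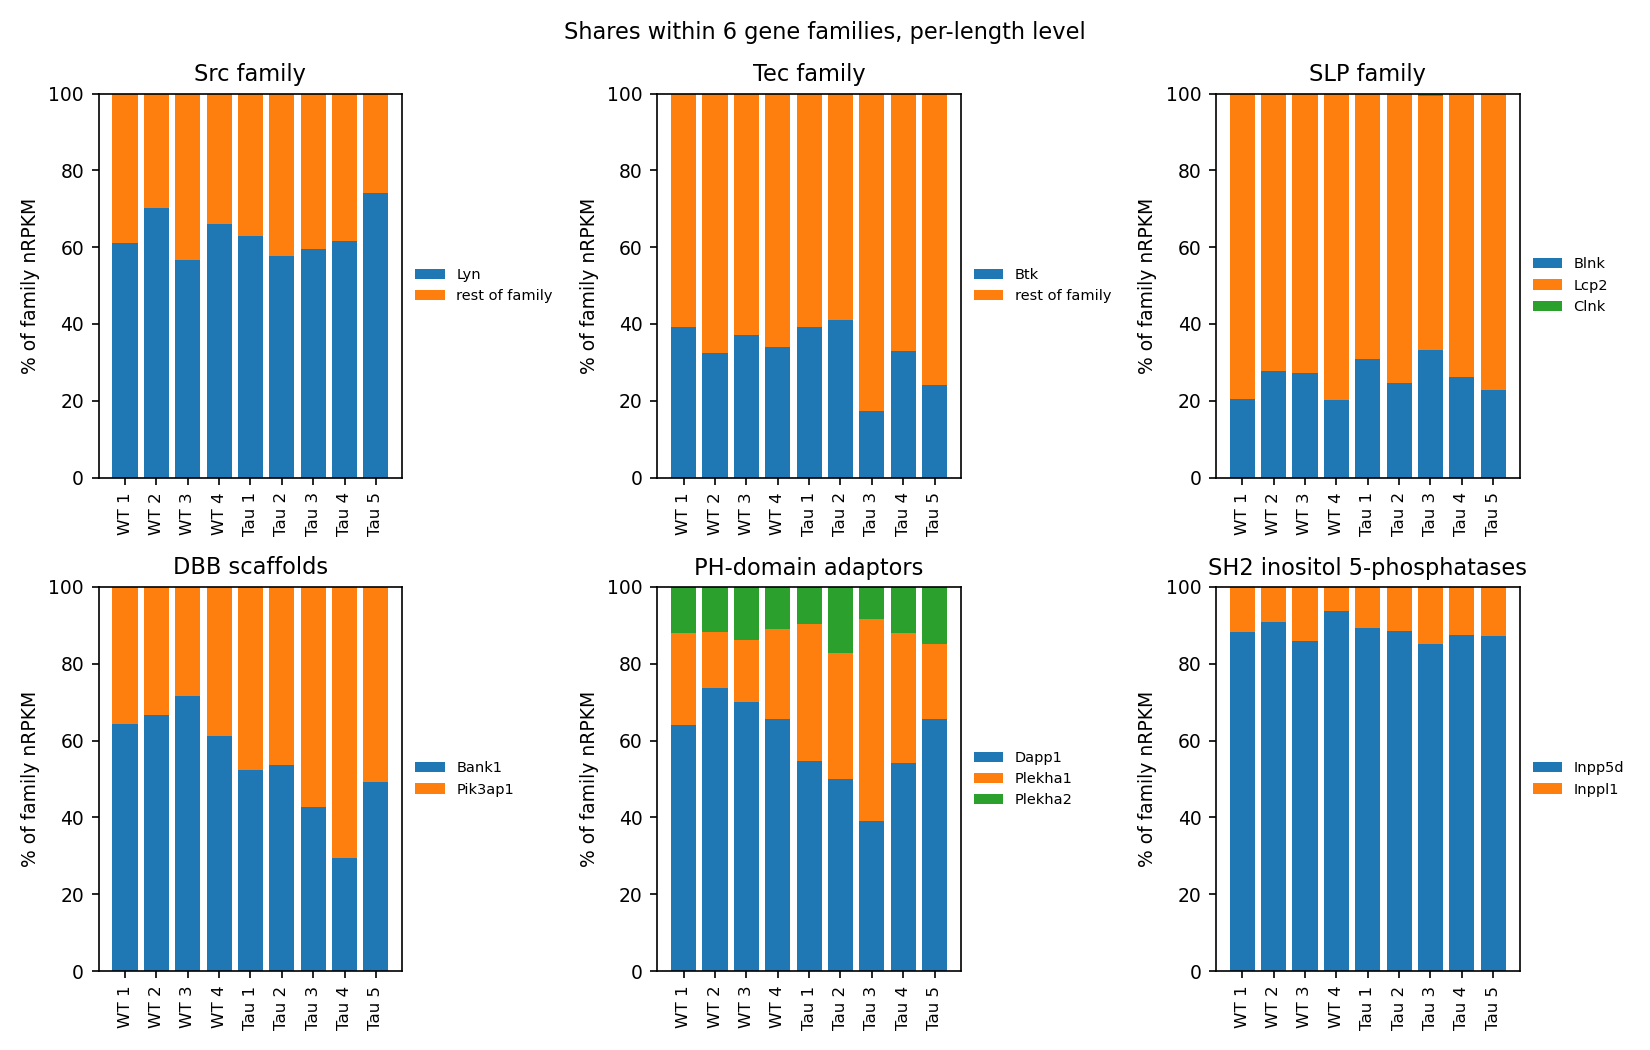
Share in the summed nRPKM (a per-length level) of a family, in percent, for 6 families and each of the 9 libraries (WT, wild type, Tau, Tau-P301L), with the Src and Tec families drawn as the member gene and the rest of its family. Lyn and Inpp5d hold most of their families in every library, Btk and Blnk hold less than the remainder of theirs, and the share of Bank1 in the DBB pair is 61.2 to 71.6% in wild-type and 29.4 to 53.7% in Tau-P301L libraries.

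The sex contrast was not used to choose the members and was tested. No member passed (0 of 7 by edgeR, by DESeq2 and by limma-voom, and 0 of 7 at an unadjusted p under 0.05, against 2.43% of all genes), with 6 of 12250 genes called, or 0.049%. Bank1 had the largest estimate, with 117 ± 36.7 CPM in females (SD, n = 4) and 86.1 ± 47.1 CPM in males (SD, n = 5), a log2 fold change of -0.43 male over female (SE 0.24, edgeR adjusted p = 1.0, and 0.937 to 1.0 over the alternatives). Btk, which lies on the X chromosome, stood at 80.2 ± 14.6 CPM in females (SD, n = 4) and 63.6 ± 9.61 CPM in males (SD, n = 5), with a value of -0.32 (SE 0.26, edgeR adjusted p = 1.0). The other 5 members had estimates between -0.11 and 0.02, each smaller than its standard error.

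For the difference of the genotype effect between the sexes, 0 of 7 members passed with edgeR, DESeq2 called 0 of them, and 0 had an unadjusted p under 0.05. Over all 13302 genes in that fit edgeR called 0.0%, with 526, or 3.95%, at an unadjusted p under 0.05, and DESeq2 called 4. Estimates for the members ran from -0.52 in Bank1 to 0.51 in Dapp1, with standard errors of 0.48 to 0.62, so that no estimate stood clear of its error.

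The rest of the pathway was read from 7 lists of 79 genes that are no members. The lists too were drawn up with earlier results of these data known. Their p-values and counts, here and in the paragraphs below, are therefore a description. Of the 79 genes 69 passed the filter, and 0 of 69 passed the genotype test by edgeR, against 0.00816% of all genes (1 of 12250). At an unadjusted p under 0.05 there were 5, Fgr and Plekha1 above and Src, Csk and Card9 below wild type, against 6.35% of all genes (778 of 12250). That count ran from 2 to 7 over 18 alternatives. It was 2 without Tau-P301L libraries 3 and 5, without wild-type library 3 and in males alone. DESeq2 called 1, Plekha1, against 0.221% of all genes (27 of 12230), and limma-voom 0. Of the 69, 33 had a higher and 36 a lower estimate, with a median log2 fold change of -0.03. The lists as a whole thus lay around the median of all genes.

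Plekha1 (TAPP1), a reader of the lipid that Inpp5d makes and a relative of Dapp1 by its PH domains, had the smallest p of the pathway. It stood at 51.5, 47.1, 37.9 and 52.3 CPM in the wild-type and at 110, 78.2, 131, 83.0 and 85.9 CPM in the Tau-P301L libraries. The lowest Tau-P301L value exceeded the highest wild-type value (log2 fold change 1.05, SE 0.27, edgeR adjusted p = 0.505). Within the PH-domain adaptors the share of Dapp1 in nRPKM averaged 68.4 ± 4.34% with the wild-type genotype (SD, n = 4) against 52.8 ± 9.51% with Tau-P301L (SD, n = 5), and that of Plekha1 19.6 ± 4.84% and 34.8 ± 11.7% (SD, n = 4 and 5). The groups overlapped for both shares. In Tau-P301L library 5 Dapp1 held 65.6%, against 64.0 to 73.6% in wild-type libraries, and Plekha1 19.6%, against 14.6 to 24.1%. The shares contain the level of Plekha1, which was named by its p.

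Among the Src-family kinases other than Lyn, 5 of 7 were tested, 4 with higher and 1 with lower estimates (median 0.17). Fgr, a kinase of myeloid cells, stood at 7.36, 5.11, 6.50 and 3.60 CPM in the wild-type and at 14.9, 36.8, 26.5, 10.3 and 7.68 CPM in the Tau-P301L libraries. The groups did not overlap, though the nearest values were 7.36 and 7.68 CPM (log2 fold change 1.79, SE 0.51, edgeR adjusted p = 0.547). Src itself averaged 17.7 ± 10.2 CPM with the wild-type genotype (SD, n = 4) against 8.79 ± 2.93 CPM with Tau-P301L (SD, n = 5, log2 fold change -1.02, SE 0.47, edgeR adjusted p = 0.776). The groups overlapped for Src, and wild-type library 3 had 32.1 CPM against 9.14 to 17.4 CPM in the other wild-type libraries. Yes1 had a log2 fold change of 0.69 (SE 0.40, edgeR adjusted p = 0.789). In wild-type libraries Fgr held 1.37% and Yes1 6.69% of the family's nRPKM.

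The 5 regulators of these kinases were all tested, 3 with higher and 2 with lower estimates (median 0.07). Csk, which places the inhibitory phosphate on Src-family kinases, averaged 47.0 ± 19.4 CPM with the wild-type genotype (SD, n = 4) against 28.5 ± 6.74 CPM with Tau-P301L (SD, n = 5, log2 fold change -0.71, SE 0.34, edgeR adjusted p = 0.776). The groups overlapped for Csk, and wild-type library 3 had 75.75 CPM against 34.1 to 41.4 CPM in the other wild-type libraries. The phosphatase Ptpn6 (SHP-1), which removes phosphates from substrates of these kinases, had a value of -0.61 (SE 0.35), and the phosphatase Ptprc (CD45), which removes the inhibitory phosphate, one of 0.44 (SE 0.25). Ptpn22 had a value of 0.56 (SE 0.58). Syk, the kinase downstream of Lyn, had one of 0.01 (SE 0.28) and Tec one of 0.18 (SE 0.30), the 2 genes tested of 6 in their list.

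Of 24 adaptors 20 were tested, 9 higher and 11 lower (median -0.10). The genes of smallest p were Lat2 (0.35, SE 0.23) and Stap1 (1.15, SE 0.74) above, and Dok3 (-1.34, SE 0.82) and Lcp2 (-0.37, SE 0.25) below, with edgeR adjusted p of at least 0.793. The low levels of Stap1 and Dok3, at 1.64 to 7.65 CPM as group means, leave their folds loose. All 13 PI3K and phosphoinositide enzymes were tested, 5 higher and 8 lower (median -0.03), with values from -0.46 to 0.20. Pik3cd, the catalytic subunit p110-delta of white blood cells, had -0.41 (SE 0.27), Pik3r6 -0.44 (SE 0.37) and the regulatory subunit Pik3r1 0.20 (SE 0.22).

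The 6 PH-domain effectors had 5 higher and 1 lower estimate (median 0.31), with Akt2 at 0.62 (SE 0.47) and Akt1 at -0.31 (SE 0.50) beside Plekha1. The 18 effectors of calcium, guanine exchange and CARD signalling had 5 higher and 13 lower (median -0.32, range -0.96 to 1.22). Card9, which carries Syk signals to NF-kB, averaged 44.0 ± 9.76 CPM with the wild-type genotype (SD, n = 4) against 22.3 ± 13.4 CPM with Tau-P301L (SD, n = 5, log2 fold change -0.96, SE 0.43, edgeR adjusted p = 0.776). The groups overlapped for Card9, with 38.9 CPM in Tau-P301L library 4 against 32.1 CPM in wild-type library 4. The lowest Card9 values, 4.93 and 16.1 CPM, were in Tau-P301L libraries 3 and 5. Its partner Malt1 had a value of 0.52 (SE 0.30), Plcg1 one of -0.71 (SE 0.37) and Vav3 one of 1.22 (SE 0.85). Vav3, which sets the top of this range, averaged 1.565 CPM in wild-type and 3.74 CPM in Tau-P301L libraries. Such low levels leave its fold loose.

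**Figure D3:**
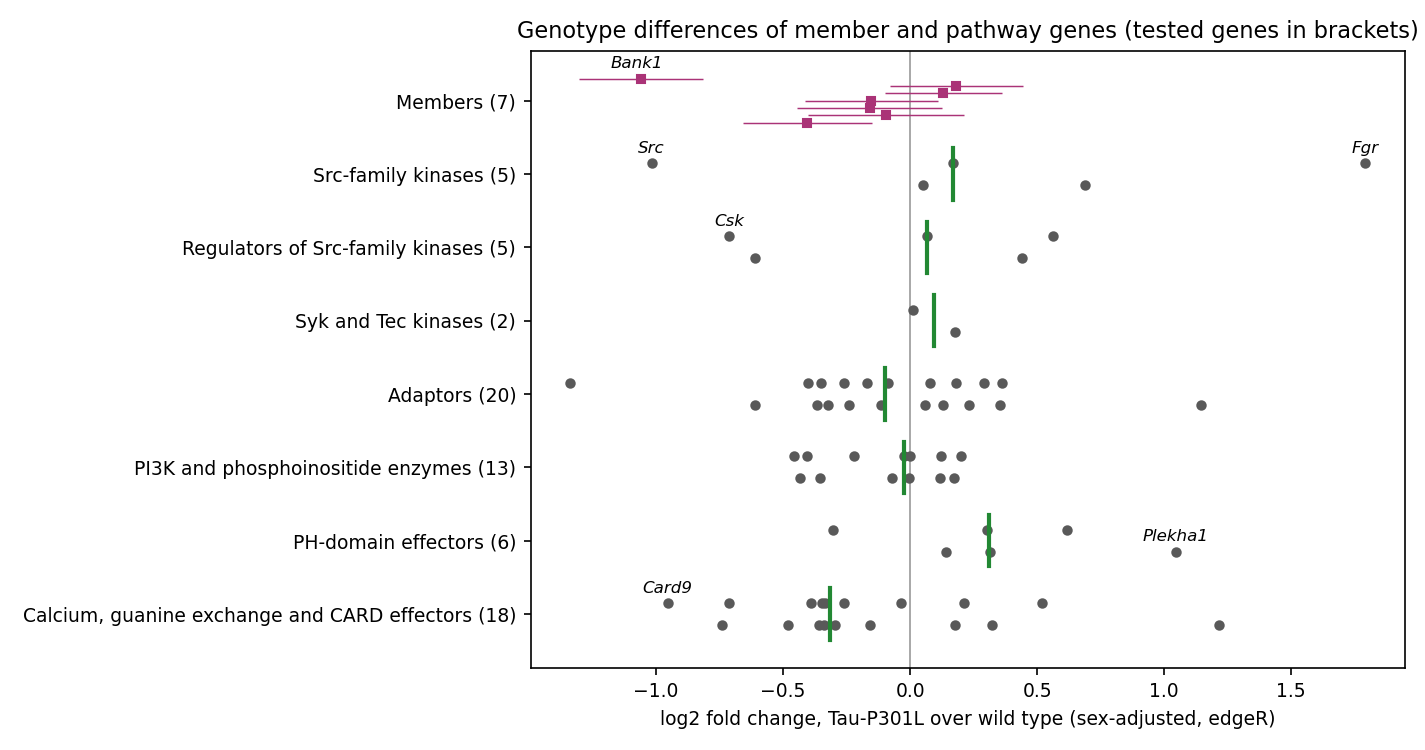
Log2 fold change of Tau-P301L over wild type, adjusted for sex, for the 7 members (squares with SE) and the tested genes of 7 pathway lists (points, with the list median as a green bar and the number tested in brackets). Bank1 at -1.06 stands left of the other members, which lie between -0.40 and 0.18, and Plekha1 (1.05) and Fgr (1.79) lie right of their lists.

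The genes with a profile nearest to Bank1 over the 9 libraries were found by the root mean square difference of log2 CPM, each gene centred on its own mean, among 7752 other genes with a mean of at least 10 CPM. They were Mterf1b (0.193 log2 units), Eif4a1 (0.198), Tcp11l2 (0.264), Tsn (0.276) and LTO1 (0.286), against a median of 0.767 over all of them. Eif4a1, a helicase of translation initiation, averaged 51.6 ± 11.1 CPM with the wild-type genotype (SD, n = 4) against 25.9 ± 6.07 CPM with Tau-P301L (SD, n = 5). Mterf1b, a mitochondrial transcription factor with a close copy elsewhere in the genome whose reads may be split, stood at 14.8 ± 4.2 and 7.52 ± 2.4 CPM (SD, n = 4 and 5). In 4 of these 5 genes, all but Tcp11l2, every Tau-P301L library lay below every wild-type library, as the measure favours. The other members were not among these 5. Of the 7752 ranks Btk had 318 (0.495), Inpp5d 747, Blnk 1232, Dapp1 2713, Lyn 3300 and Pik3ap1 3567 (0.746). Each was thus nearer to Bank1 than the median gene (0.767).

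**Figure D4:**
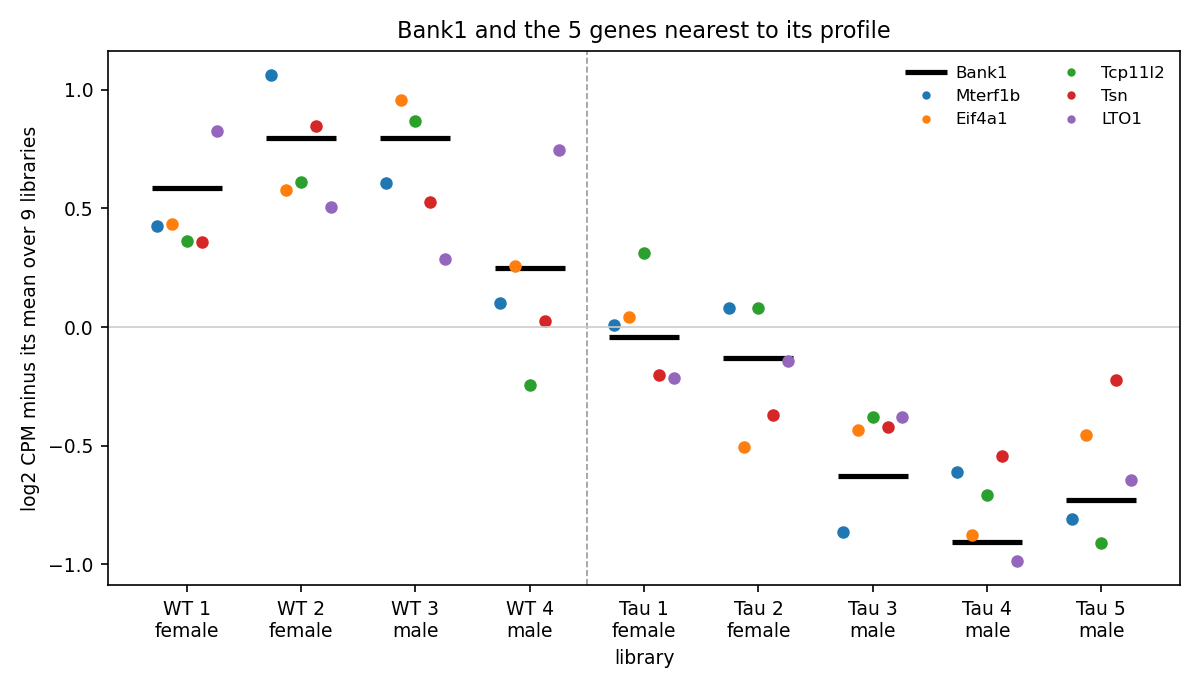
Log2 CPM minus its mean over the 9 libraries (vertical axis) for Bank1 (black bars) and the 5 genes of nearest profile (coloured points), by library with its sex. Bank1 and Eif4a1 are higher in each wild-type library than in any Tau-P301L library and lowest in Tau-P301L library 4.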

How the data were processed

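RNA was sequenced in 9 libraries of sorted Cd11b+ brain cells. Per the file headers, the authors deposited for each gene a whole-number read count and a normalized RPKM value (nRPKM). Reads were aligned with GSNAP to GRCm38 per the submitters' processing notes. Versions, annotation, filters and strand setting were not given in the sources used here.

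Counts were analysed with edgeR 4.0.16 in R 4.3.3: filterByExpr, TMM scaling, a robust quasi-likelihood F test with genotype and sex as terms over 12250 genes, and Benjamini-Hochberg adjustment at 0.05. The interaction had its own fit over 13302 genes. Standard errors were taken as the log2 fold change over the square root of F. Levels between genes were compared in nRPKM. DESeq2 1.42.0, limma-voom 3.58.1, other filters and scalings, and fits without single libraries were alternatives.

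The members and the gene lists were chosen with earlier results of these data known. Named were the members, their paralogues by level, in each list the 2 tested genes of smallest genotype p in each direction, the 5 profiles nearest to Bank1, and markers. A few genes that this rule names are not reported here. Gene symbols, positions and promoters came from RefSeq, and exon overlaps from GENCODE. Of 36528 gene identifiers 31049 had a symbol, and these held 96.9 to 98.0% of reads.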

Additional observations from a re-analysis of the deposited data

How the results depend on the processing

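Bank1, Btk and Inpp5d kept the sign of their genotype estimate in all 18 alternatives, while the sign changed in 1 for Pik3ap1, 2 for Blnk, 3 for Lyn and 4 for Dapp1. For Bank1, chosen by this difference and without overlap of the groups, the sign could hardly change. Over all genes 1 was called for genotype, against 26 without a filter on low counts, 27 with DESeq2, and 0 with limma-voom, without Tau-P301L libraries 3 and 5, in females alone and in males alone. Leaving out single libraries gave 0 to 1, with 0 on omission of any of the 4 wild-type libraries and of Tau-P301L libraries 1, 3 and 5. For sex 6 genes were called, against 16 without the filter and 10 without Tau-P301L libraries 3 and 5. For the interaction 0 were called, against 4 with DESeq2 and 0 to 4 without single libraries (3 without wild-type library 4, 1 without Tau-P301L library 2, 4 without Tau-P301L library 4). The cause was not tested.

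Without Tau-P301L libraries 3 and 5 the sex estimate changed sign to 0.114 in Pik3ap1, 0.186 in Blnk, -0.2 in Dapp1 and 0.18 in Inpp5d. It was 0.012 in Pik3ap1 without a genotype term and -0.061 in Dapp1 with limma-voom. Without single libraries it ran from -0.191 to 0.062 in Pik3ap1, -0.184 to 0.054 in Lyn, -0.287 to 0.113 in Blnk, -0.286 to 0.244 in Dapp1 and -0.287 to 0.076 in Inpp5d, and no member was called in any of these. By reads, not divided by length, the wild-type family shares were 16.5% for Blnk, 60.6% for Bank1 and 58.2% for Dapp1. The common biological coefficient of variation was 0.464, and 6 residual degrees of freedom limit what could be called.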
